A study of Mus musculus with 20 samples.

Results

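The nuclear factor I (NFI) family was followed through the chromatin of Nkx2.1-lineage cells with and without Tcf4. Its 4 genes, Nfia, Nfib, Nfic and Nfix, were taken from 21951 protein-coding genes of the mouse annotation, each with 5 kb added on both sides. Of the 32120 regions in the table of reproducible ATAC-seq regions, 37 belonged to them, 26 by the gene symbol in that table and 11 by position alone. Of the 709410 peaks in 18 peak lists, 616 lay in the gene windows, and 8 of the 1205 footprinted motifs carried an NFI name. GFP-positive cells were sorted from the neocortex of P7 or P8 pups, where GFP fluorescence came from the Cre-dependent Ai3 EYFP reporter. P7 is the age in the labels of the ATAC footprints and the age the paper gives for H3K4me1. WT pups carried Nkx2.1-Cre. Tcf4 cKO pups carried Nkx2.1-Cre and floxed alleles of Tcf4 (f/f), so that Tcf4 was deleted in the ventral progenitors that express Nkx2.1 and in their descendants. Each genotype was represented by 2 libraries for ATAC-seq (open chromatin), H3K4me1 (a mark of enhancers), H3K27ac (a mark of active enhancers and promoters) and H3K27me3 (the Polycomb mark), and 2 further Cut&Tag libraries recorded Tcf4 through a Flag/HA tag that Cre switches on at the end of the endogenous protein.

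NFI proteins bind DNA as dimers at a palindrome of TTGGC and GCCAA separated by 5 bases, and also, more weakly, at a single copy of that motif. Nfia and Nfib are needed for the onset of gliogenesis in the embryonic central nervous system, Nfix acts in neural progenitors and in their timing, and Nfic, the most broadly expressed member, is best known from tooth and bone. Tcf4 is an E protein, a basic helix-loop-helix factor that binds E-boxes such as CAGCTG.

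The values rest on sorted mixtures of cells, in which fewer cells of a type and a weaker signal per cell cannot be told apart. Peak lists held from 15085 to 72790 entries, and read depth is unknown from these lists. Peak enrichments of the 2 libraries of a genotype correlated across regions at r = 0.83 for ATAC in each genotype, and at 0.59 and 0.66 for H3K4me1. Open chromatin within 1 kb of the start site, in both libraries, was present in WT and in Tcf4 cKO at 3 of 5 oligodendrocyte-lineage markers (Sox10, Olig1 and Olig2) and at 2 of 5 astrocyte markers (Gfap and Slc1a3). Among 5 interneuron markers it was present at 4 in WT (Gad2, Lhx6, Dlx1 and Dlx2) and at 2 in Tcf4 cKO (Lhx6 and Dlx2). The same held in both genotypes at 2 of 5 microglial markers (P2ry12 and Tmem119) and 2 of 4 endothelial markers (Flt1 and Cldn5), and at 1 of 4 projection-neuron markers in WT (Neurod2) against 0 in Tcf4 cKO. H3K27ac in both libraries was found at 1 promoter in WT (Olig1) and 1 in Tcf4 cKO (Slc1a3) among the markers of these 6 lists. The part of cell composition in the results that follow was not tested.

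The sequences at the centres of the NFI regions that differed between the genotypes, 151 bases each on the plus strand of GRCm38, show what kind of DNA was involved. Capitals mark TTGGCA (read as TGCCAA on the other strand), the NFI core, and the E-box CAGCTG, which reads the same on both strands. The set comprises the 5 regions whose mean accessibility was more than 1 higher on the log2 scale in Tcf4 cKO, then the 2 whose peak enrichment was called lower.
Nfix chr8:84712588-84712738: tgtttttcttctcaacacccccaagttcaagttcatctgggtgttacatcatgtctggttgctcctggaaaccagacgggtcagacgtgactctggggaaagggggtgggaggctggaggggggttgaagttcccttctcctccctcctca
Nfia chr4:97997124-97997274: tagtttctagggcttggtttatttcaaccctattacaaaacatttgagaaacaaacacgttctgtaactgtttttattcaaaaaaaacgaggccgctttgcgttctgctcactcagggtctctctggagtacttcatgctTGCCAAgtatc
Nfia chr4:97953850-97954000: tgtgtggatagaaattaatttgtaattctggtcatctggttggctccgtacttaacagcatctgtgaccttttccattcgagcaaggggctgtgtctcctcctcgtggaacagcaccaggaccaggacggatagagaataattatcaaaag
Nfib chr4:82447359-82447509: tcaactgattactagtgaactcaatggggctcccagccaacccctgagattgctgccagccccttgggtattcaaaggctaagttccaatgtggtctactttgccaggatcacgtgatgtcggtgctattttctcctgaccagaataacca
Nfia chr4:97894256-97894406: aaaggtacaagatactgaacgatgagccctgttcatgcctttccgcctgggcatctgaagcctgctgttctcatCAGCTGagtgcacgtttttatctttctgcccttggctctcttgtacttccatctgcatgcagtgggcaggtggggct
Nfix chr8:84752059-84752209: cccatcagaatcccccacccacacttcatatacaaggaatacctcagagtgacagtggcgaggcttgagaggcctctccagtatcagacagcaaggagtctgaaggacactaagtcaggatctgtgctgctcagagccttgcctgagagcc
Nfia chr4:97836932-97837082: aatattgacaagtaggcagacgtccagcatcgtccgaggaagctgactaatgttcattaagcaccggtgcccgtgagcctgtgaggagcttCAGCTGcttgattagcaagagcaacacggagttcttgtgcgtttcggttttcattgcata
Of the 5 regions with the higher means, the second holds an NFI core, 65 bases from its centre, and the last a CAGCTG that starts 1 base from its centre. The shorter TTGGC or GCCAA, not capitalized, is also in the Nfib window and in those at chr4:97953850-97954000 and chr4:97894256-97894406. E-boxes other than CAGCTG were not searched, but they do occur in these windows. CAGGTG, for example, can be read near the end of chr4:97894256-97894406. Of the 2 regions called lower, the Nfix window holds neither the NFI core nor CAGCTG, and the Nfia window holds CAGCTG.

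Most NFI regions kept their mean accessibility within 0.5 on the log2 scale without Tcf4, and of the 9 beyond it 7 were higher and 2 lower. The authors' mean log2 read concentrations, which pool the libraries of a genotype and so carry no replicate error, were more than 0.5 higher in Tcf4 cKO at 7 of the 37 regions, against 8.38% of all regions, and more than 0.5 lower at 2, against 12.6% of all regions. The median difference was 0.14 over the NFI regions and -0.10 over all regions. All 7 regions with higher means lay in introns, 3 in Nfia, 2 in Nfib and 2 in Nfix, and 0 were promoters. Of the 37 NFI regions 28 lay outside promoters. Of the 2 with lower means, 1 lay in an intron of Nfia and 1 at a promoter of Nfic. The 7 higher regions had a median mean level of 5.13 in WT and 6.37 in Tcf4 cKO, against 7.15 and 7.12 for the 27 regions that were neither beyond 0.5 nor called, although choosing regions by their difference in itself favours low WT levels.

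**Figure D1:**
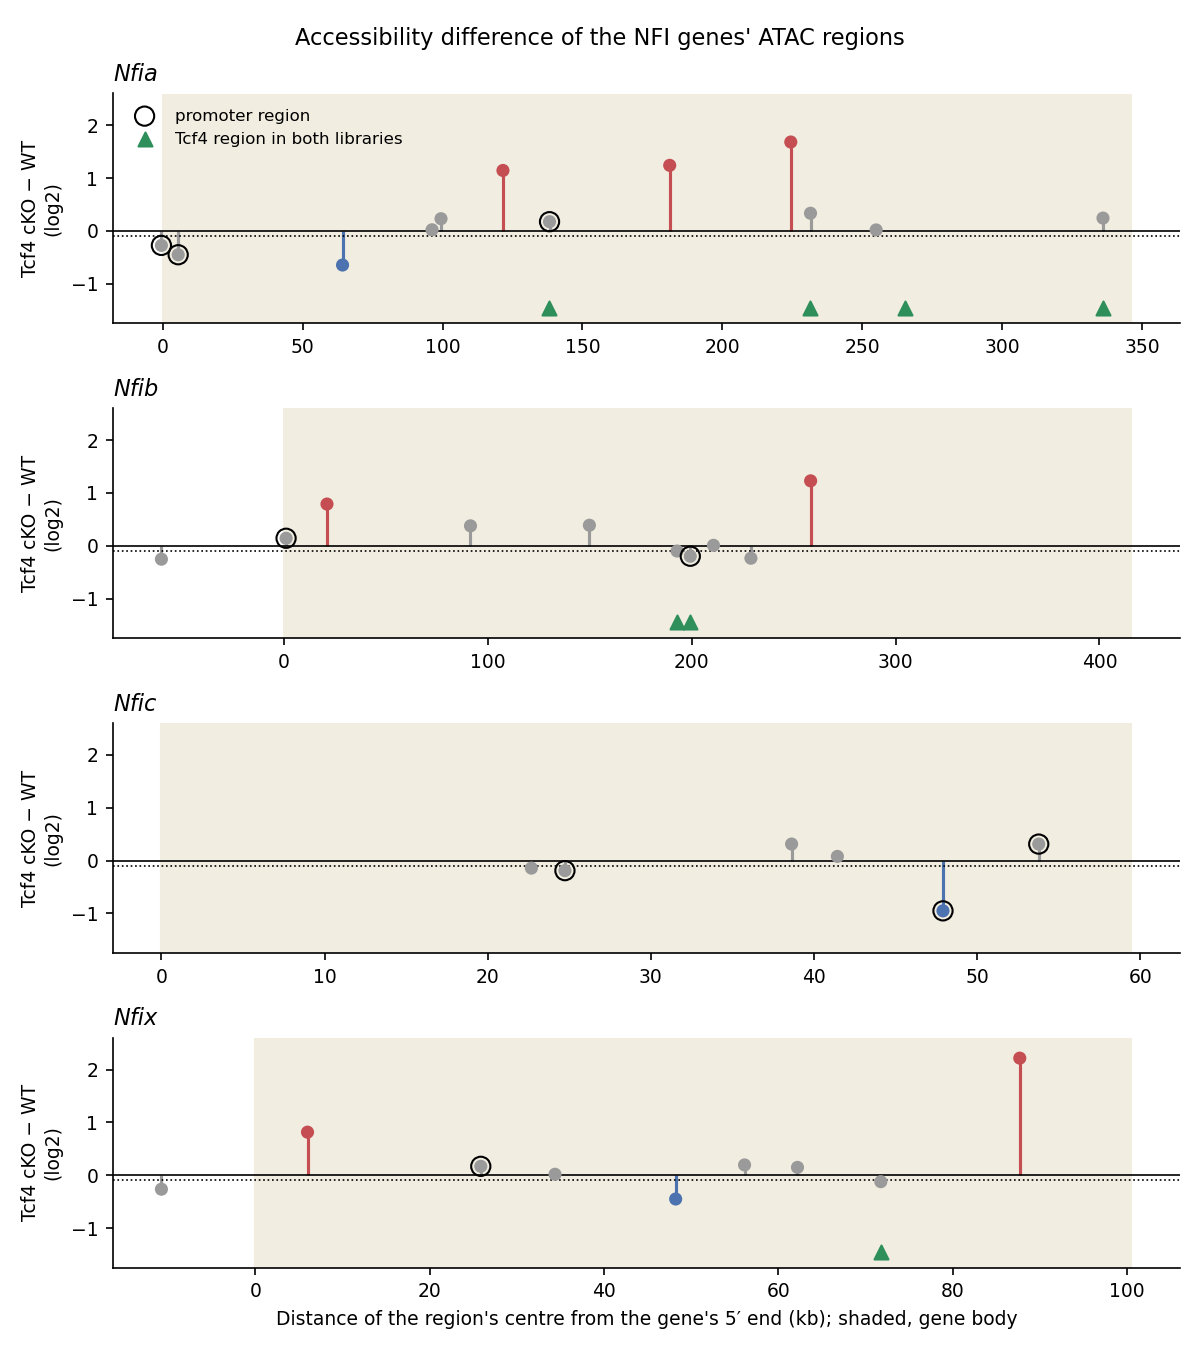
Difference of the authors' mean log2 accessibility, Tcf4 cKO minus WT (vertical axis), for the 37 ATAC regions of the NFI genes by distance from each gene's 5′ end in kb. Red, over 0.5 higher; blue, over 0.5 lower or called lower; grey, others; rings, promoter regions; triangles, Tcf4 regions found in both libraries; dotted line, median of all regions at -0.10. The red points are all intronic and none has a triangle beneath it. Of the 37 regions 28 lie outside promoters.

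The largest difference was in Nfix. The intronic region chr8:84712310-84713016 (mm10), 1052 bp from the nearest annotated Nfix start site, had a mean of 4.66 in WT and 6.87 in Tcf4 cKO, a log2 difference of 2.22. Peaks were called in both Tcf4 cKO libraries, with fold enrichments over local background of 4.24 and 5.12, and not in WT. It was the 1 NFI region with that pattern, which 0.56% of all regions shared, and 0 NFI regions had the reverse pattern, found at 1.02% of all regions. With peaks of −log10 q of at least 5 alone, each of these patterns was found at 2 NFI regions. The pattern of Tcf4 cKO alone was then found at 472 of all 32120 regions, and the number with the reverse pattern is not given. No H3K4me1, H3K27ac, H3K27me3 or Tcf4 peak overlapped it in any library.

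In Nfia, the region chr4:97996795-97997603 in an intron 85762 bp from the nearest start site had a mean of 4.13 in WT and 5.81 in Tcf4 cKO, a difference of 1.68. It had no peak in WT replicate 1, an enrichment of 3.39 in WT replicate 2, and 7.34 and 7.58 in Tcf4 cKO. An H3K4me1 peak overlapped it in each Tcf4 cKO library and in neither WT library, but the merged H3K4me1 region around it, chr4:97996223-97997685, also held a peak of WT replicate 2 with an enrichment of 3.77. The other Nfia regions separated less. At chr4:97953487-97954362 the means differed by 1.24, but the single WT enrichment of 6.29 lay between the Tcf4 cKO values of 5.88 and 6.46. At chr4:97893801-97894860, where the difference of means was 1.14, the enrichments were 4.69 and 5.34 in WT and 5.86 and 6.12 in Tcf4 cKO, so that the genotypes did not overlap. That difference of 0.35 ± 0.15 (log2, SE, n = 2 libraries per genotype) did not pass the test (limma adjusted p = 0.29).

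Nfib had an intronic region at chr4:82447034-82447833 with a mean of 5.11 in WT and 6.34 in Tcf4 cKO, a difference of 1.23. Its enrichments were 5.22 and 7.25 in WT and 7.69 and 7.77 in Tcf4 cKO, higher in both Tcf4 cKO libraries, with limma giving 0.42 ± 0.16 (adjusted p = 0.20, n = 2). H3K4me1 marked it in all 4 libraries, and H3K27ac in 1 WT and both Tcf4 cKO libraries. A smaller difference of means, 0.79, was found at chr4:82684285-82685061, 20689 bp from the nearest start site, with H3K4me1 in each Tcf4 cKO library and none in WT. The second Nfix region, chr8:84793777-84794951, differed by 0.82 in means, yet its enrichments of 5.57 and 6.61 in WT and 6.72 and 5.81 in Tcf4 cKO overlapped.

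When each library's peak enrichment was tested, 2 NFI regions fell and 0 rose among the 33 regions with a peak in all 4 ATAC libraries (limma, adjusted p under 0.05). Over all 30379 tested regions 1.5% fell and 1.45% rose. The median difference of the 33 regions was -0.04, and at an unadjusted p under 0.05 there were 2 higher and 5 lower, against 6.78% and 7.46% of all regions. The fit leaves out 4 regions that lacked a peak in at least 1 library, the Nfix region and 2 of the Nfia regions above, which lacked WT peaks, and an Nfic promoter, which lacked a Tcf4 cKO peak. With the absent values set at the library's lowest enrichment, chr8:84712310-84713016 gave 1.07 ± 0.16 (adjusted p = 0.0067) and chr4:97996795-97997603 gave 1.49 ± 0.17 (adjusted p = 0.0011), so that 2 rose and 2 fell, where 1.62% and 2.17% of all 32120 regions did. That result rests on the value imputed.

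Both regions that fell were intronic. In Nfix, chr8:84751642-84752626 had enrichments of 9.44 and 8.45 in WT and 4.52 and 4.27 in Tcf4 cKO, a difference of -0.93 ± 0.16 (log2, SE, n = 2; limma adjusted p = 0.0054). The authors' means were 6.78 in WT and 6.33 in Tcf4 cKO. It carried H3K4me1 in all 4 libraries and a Tcf4 peak in replicate 1, with an enrichment of 4.46, but not in replicate 2. In Nfia, chr4:97836768-97837246 had enrichments of 6.13 and 5.97 in WT and 3.55 and 3.63 in Tcf4 cKO, a difference of -0.66 ± 0.16 (limma adjusted p = 0.026, n = 2), and the authors' means were 5.96 and 5.32. No Tcf4 or H3K4me1 peak overlapped it. Neither call was kept when either WT library was left out, with adjusted p of 0.15 and 0.13 for Nfix and 0.24 and 0.14 for Nfia, and the Nfia call was also lost without Tcf4 cKO replicate 1 (limma adjusted p = 0.093). In the whole table limma then called 0 regions, with 1608 higher and 1890 lower at an unadjusted p under 0.05 without WT replicate 1, and 2158 and 1600 without WT replicate 2.

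**Figure D2:**
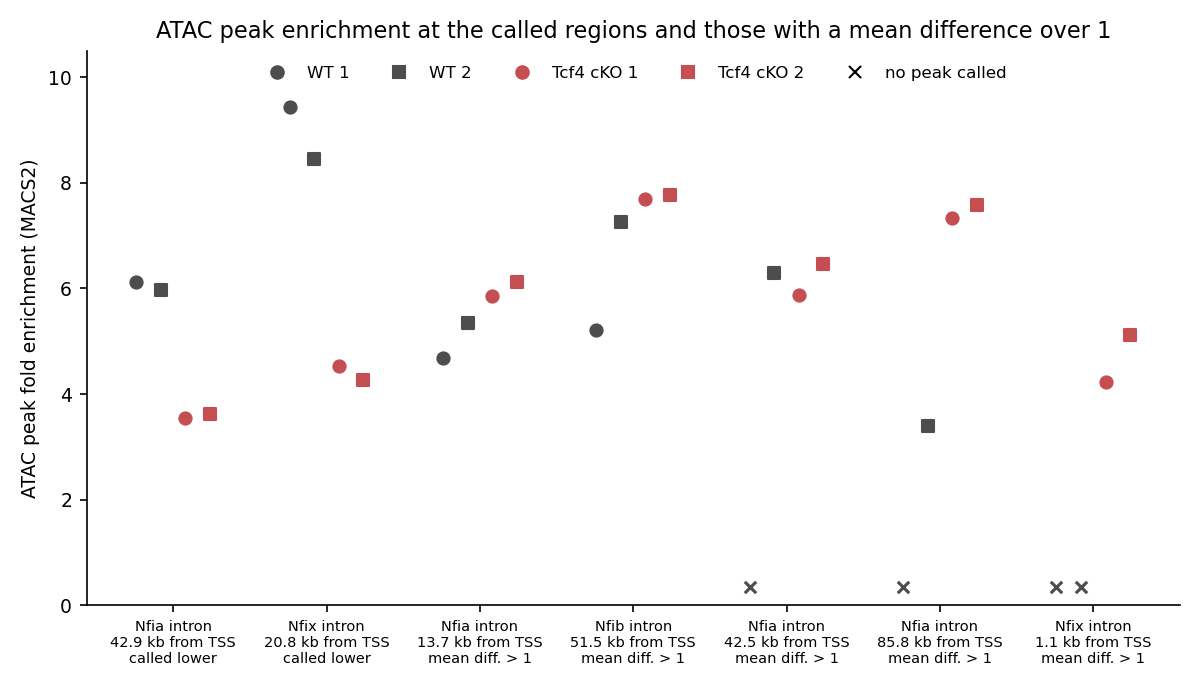
MACS2 fold enrichment of the ATAC peak (vertical axis) in each library at the 2 regions called lower and the 5 with a mean difference over 1, ordered by difference of means. Circles, replicate 1; squares, replicate 2; grey, WT; red, Tcf4 cKO; crosses, no peak called. At the Nfia region called lower the WT libraries stand at 6.13 and 5.97 and the Tcf4 cKO libraries at 3.55 and 3.63, and at the Nfix region at 9.44 and 8.45 against 4.52 and 4.27.

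Promoters of all 4 genes were open in both genotypes. Of the 9 NFI promoter regions, 8 could be tested and 0 were called, and 1 had a mean difference beyond 0.5. The Nfia promoter at chr4:97771721-97772823, which spans an annotated start and untranslated sequence, had enrichments of 9.15 and 8.22 in WT and 7.94 and 7.87 in Tcf4 cKO (-0.04 ± 0.16, limma adjusted p = 0.96, n = 2). The Nfib promoter at chr4:82505666-82507266 gave 5.73 and 5.69 against 5.31 and 4.87 (-0.08 ± 0.16, limma adjusted p = 0.93, n = 2). The Nfix promoter at chr8:84773828-84775150 gave 4.31 and 5.08 against 3.40 and 3.96, lower in both Tcf4 cKO libraries but not called (-0.26 ± 0.16, limma adjusted p = 0.53, n = 2). For Nfic, the main promoter region at chr10:81429899-81431900 gave 4.55 and 4.13 against 4.38 and 3.96 (0.03 ± 0.16, limma adjusted p = 0.97, n = 2). Other promoters of the same genes were not called either. At Nfia, chr4:97777620-97778909 had 5.29 and 4.45 in WT and 3.83 and 3.53 in Tcf4 cKO, lower in both without passing the test (-0.31 ± 0.17, limma adjusted p = 0.44, n = 2). The internal Nfia promoter chr4:97910508-97911451 had 6.90 and 6.61 against 5.33 and 5.79 (-0.19 ± 0.16, limma adjusted p = 0.71, n = 2). The upstream Nfib promoter chr4:82704041-82705431 had 6.44 and 6.42 against 5.67 and 6.22, and the 3′ Nfic promoter chr10:81401275-81402438 had 4.80 and 5.63 against 6.61 and 4.76. The exception was a downstream Nfic promoter, chr10:81407409-81408043, where enrichments were 4.50 and 4.98 in WT, 3.09 in Tcf4 cKO replicate 1 and no peak in replicate 2, and the mean went from 6.50 to 5.55.

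The share of each gene window lying under peaks gives a level for every gene in every library. In WT, open chromatin covered 8.21% and 8.64% of the Nfic window and 6.66% and 10.1% of the Nfix window, against 2.69% and 3.61% for Nfia and 3.06% and 4.13% for Nfib. The 2 short genes thus stood above the 2 long ones without overlap, while neither pair could be ordered within itself. H3K27me3 in WT was most extensive at Nfix (8.20% and 10.4%), then Nfic (3.78% and 4.90%), then Nfib (1.32% and 1.07%), and was absent from the Nfia lists, an order with no overlap between neighbours. H3K4me1 lay between 1.62% and 3.52% in all 8 WT values, without a clear order. H3K27ac in WT covered 1.10% and 1.06% of Nfia, 1.11% and 0.69% of Nfib, 1.13% and 1.0% of Nfix, and 0% and 0.98% of Nfic. The Nfic values lay below those of Nfia and Nfix and overlapped those of Nfib, and Nfia, Nfib and Nfix overlapped each other.

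Of the 16 pairs of gene and assay, 4 were higher in both Tcf4 cKO libraries than in both WT libraries, 2 were lower in both and 10 overlapped. Nfia had more open chromatin in Tcf4 cKO, 4.19% and 4.0% against 2.69% and 3.61%, a pattern found at 8.89% of gene windows with any ATAC peak. Nfia also had more H3K27ac, 2.11% and 1.59% against 1.10% and 1.06%, a pattern found at 10.6% of windows for that mark and lost with peaks of −log10 q of at least 5 or with 50 kb of flank. With 2 libraries per genotype the exact two-sided permutation test cannot go below p = 0.333, so these are separations and not calls. The number of H3K27ac peaks in Nfia was 8 and 8 in WT and 14 and 12 in Tcf4 cKO. Nfic had less open chromatin, 7.75% and 6.46% against 8.21% and 8.64%, as did 24.9% of windows, a separation lost with 50 kb of flank. Nfib and Nfic had more H3K4me1 in Tcf4 cKO, Nfib 3.96% and 2.84% against 1.97% and 2.82%, and Nfic 2.31% and 3.13% against 1.96% and 1.67%. The separation was lost for Nfib with 50 kb of flank and for Nfic with peaks of −log10 q of at least 5. That pattern held at 39.9% of windows, and the whole H3K4me1 lists were longer in Tcf4 cKO (72790 and 65049 peaks) than in WT (51510 and 59526). Nfix had less H3K27me3, 6.05% and 6.95% against 8.20% and 10.4%, a pattern found at 14% of windows. The remaining directions, with 0 NFI genes, were found at 4.59% of windows (H3K4me1 lower), 20.7% (H3K27ac lower) and 18.2% (H3K27me3 higher).

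**Figure D3:**
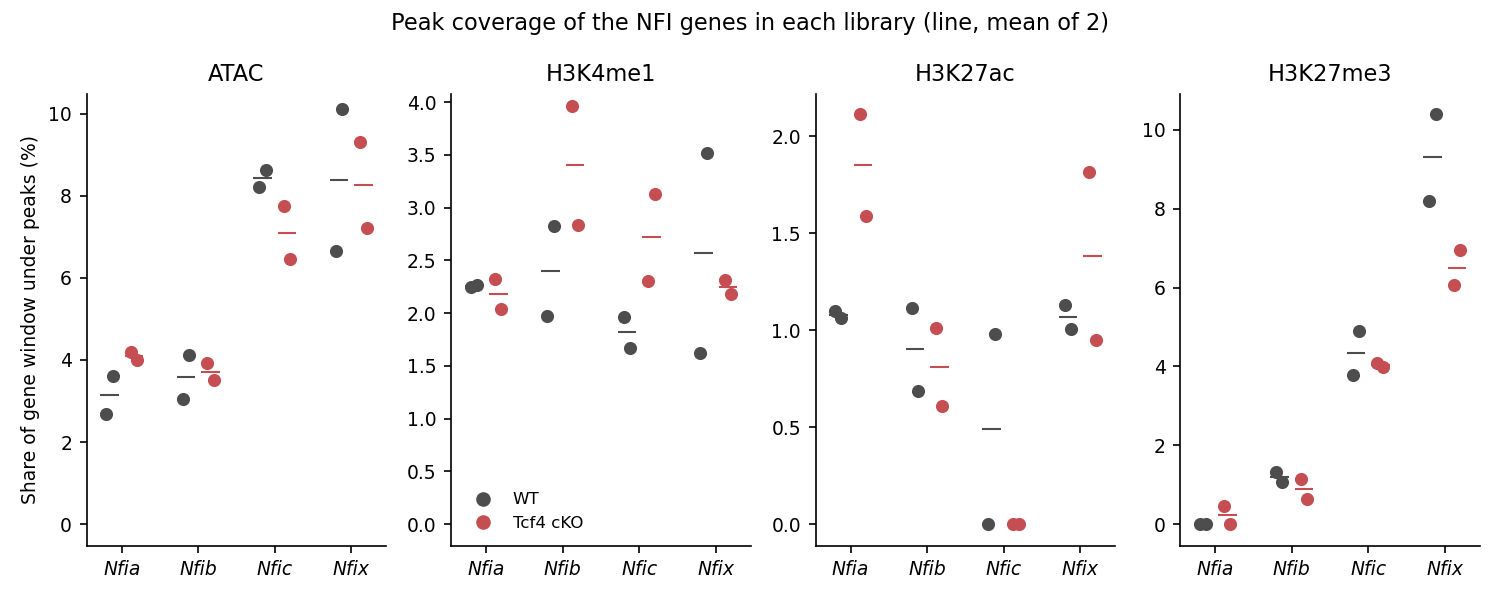
Percent of each gene window under peaks (vertical axis, a scale of its own in each panel) in the 2 WT (grey) and 2 Tcf4 cKO (red) libraries, with a line at each mean. Nfia separates by genotype for ATAC (2.69 and 3.61 against 4.19 and 4.0) and H3K27ac (1.10 and 1.06 against 2.11 and 1.59), and Nfix for H3K27me3 (8.20 and 10.4 against 6.05 and 6.95).

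The wider H3K27ac at Nfia lay mostly in introns. The most upstream promoter was acetylated in all 4 libraries, at enrichments of 4.12 and 5.76 in WT and 3.94 and 3.22 in Tcf4 cKO, and the internal promoter near chr4:97910697-97911266 at 3.01 and 3.74 in WT and 4.39 and 4.20 in Tcf4 cKO. Neither passed the test (limma adjusted p = 0.71 and 0.73, n = 2). Of 17 merged H3K27ac regions in Nfia, 1, at chr4:97796048-97796581, had peaks in Tcf4 cKO (3.57 and 3.49) and none in WT. Nfib had 1 such region of 18, at chr4:82384311-82384917 (4.62 and 5.14). That made 2 of 43 NFI regions, against 2.53% of all merged H3K27ac regions, and 0 NFI regions had the reverse pattern, found at 4.23%. Over all regions with a peak in all 4 libraries, 0 of 13799 (0%) were called for H3K27ac by limma with 461 higher and 448 lower at an unadjusted p under 0.05, and of the 5 NFI regions tested 0 were called, with 1 higher and 1 lower at that level.

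H3K4me1 regions found in Tcf4 cKO alone lay mostly in Nfib, which also held 43 of the 80 merged regions of the family. Of 43 merged H3K4me1 regions in Nfib, 6 were called in each Tcf4 cKO library but not in WT, and 0 the reverse. They included chr4:82589435-82589938 (3.63 and 4.85), chr4:82592543-82593029 (3.97 and 3.82) and chr4:82684281-82684982 (3.14 and 4.0), the last of these over the intronic ATAC region that also had a higher mean. The others were chr4:82572089-82572832 (3.60 and 3.08), chr4:82691578-82692196 (3.51 and 3.38) and chr4:82704749-82705592 (2.95 and 2.86), the last 158 bp from the upstream start site. Nfia had 1 such region of 23, chr4:98027435-98027876 (3.30 and 3.13), and 2 of the reverse kind, at chr4:97808883-97809707 (3.25 and 3.76 in WT) and chr4:97886043-97886935 (3.39 and 3.97 in WT). Nfic and Nfix had 0 of either kind. Over the 4 genes 7 of 80 regions were found in Tcf4 cKO alone and 2 in WT alone. Of all merged H3K4me1 regions 7.51% were found in Tcf4 cKO alone and 2.64% in WT alone. Of the regions with a peak in every library, 0.00383% passed the limma test (1 of 26103) and 0 of the 15 NFI regions did.

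H3K27me3 was shared by all libraries at a few regions of Nfix, Nfic and Nfib. Of 20 merged H3K27me3 regions in the NFI genes, 5 had peaks in all 4 libraries and 12 in 1 library alone. The Nfix region chr8:84784119-84786934, intronic and 9750 bp from the nearest start site, had enrichments of 2.10 and 2.16 in WT and 2.28 and 2.07 in Tcf4 cKO, which overlapped (limma adjusted p = 0.88, n = 2). Its −log10 q was 16.7 and 20.4 in WT and 3.71 and 3.08 in Tcf4 cKO, and within its own list the peak outranked 98.9% and 99.4% of peaks in WT and 80.1% and 72.6% in Tcf4 cKO. The enrichments thus showed no difference, while −log10 q and rank were lower in both Tcf4 cKO libraries than in both WT libraries. Values of q move with read depth, which is unknown here, and the cause of the lower values was not tested. The 6265 bp region over the 3′ part of Nfix, chr8:84701852-84708116, had enrichments of 1.60 and 1.61 in WT and 1.94 and 1.90 in Tcf4 cKO (0.25 ± 0.06, limma adjusted p = 0.18, n = 2). Its −log10 q was lower in Tcf4 cKO as well, at 2.0 and 2.35 against 3.43 and 4.09, although its enrichment was higher there. Another Nfix region, chr8:84798295-84799482, 542 bp from a start site, had peaks in WT (2.0 and 2.13) and none in Tcf4 cKO, the 1 NFI region of 20 with that pattern, found at 4.05% of all merged H3K27me3 regions. The reverse, found at 5.36%, occurred at 0 NFI regions. With its absent values set at the lowest enrichment this region passed the test (-0.67 ± 0.07, limma adjusted p = 0.020, n = 2), as did 6.66% of all 16358 regions in that direction and 9.59% in the other. Both of its Tcf4 cKO values are then the imputed constant.

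At Nfic, the strongest region was chr10:81451305-81454344, 1291 bp from a start site, with enrichments of 2.51 and 2.36 in WT and 2.06 and 2.14 in Tcf4 cKO (-0.22 ± 0.06, limma adjusted p = 0.21, n = 2). Its −log10 q was also lower in Tcf4 cKO, 8.62 and 10.4 against 17.6 and 15.6 in WT. The peak outranked 99.1% and 98.7% of its list in WT and 96.0% and 97.5% in Tcf4 cKO. The lower −log10 q was thus not particular to Nfix. The intronic Nfib region chr4:82535530-82539786 had enrichments of 1.90 and 1.91 in WT and 2.53 and 2.26 in Tcf4 cKO, and did not pass the test (0.32 ± 0.07, limma adjusted p = 0.18, n = 2). Smaller differences were seen upstream of Nfic at chr10:81460419-81465214 (1.82 and 1.83 against 1.74 and 1.66, limma adjusted p = 0.42, n = 2). Peaks were absent from some libraries in Nfib at chr4:82442621-82443442 (none and 2.64 in WT, 2.89 and 2.98 in Tcf4 cKO) and in Nfic at chr10:81419703-81420289 (replicate 2 of each genotype, 2.56 and 2.64). Nfia had 3 peaks of 326 to 964 bp, all of them in Tcf4 cKO replicate 1. Of 7802 regions tested for this mark, 0 (0%) were called by limma, with 705 higher and 541 lower at an unadjusted p under 0.05. The counts for the 5 NFI regions tested were 0 after adjustment, and 2 higher and 1 lower at that level.

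**Figure D4:**
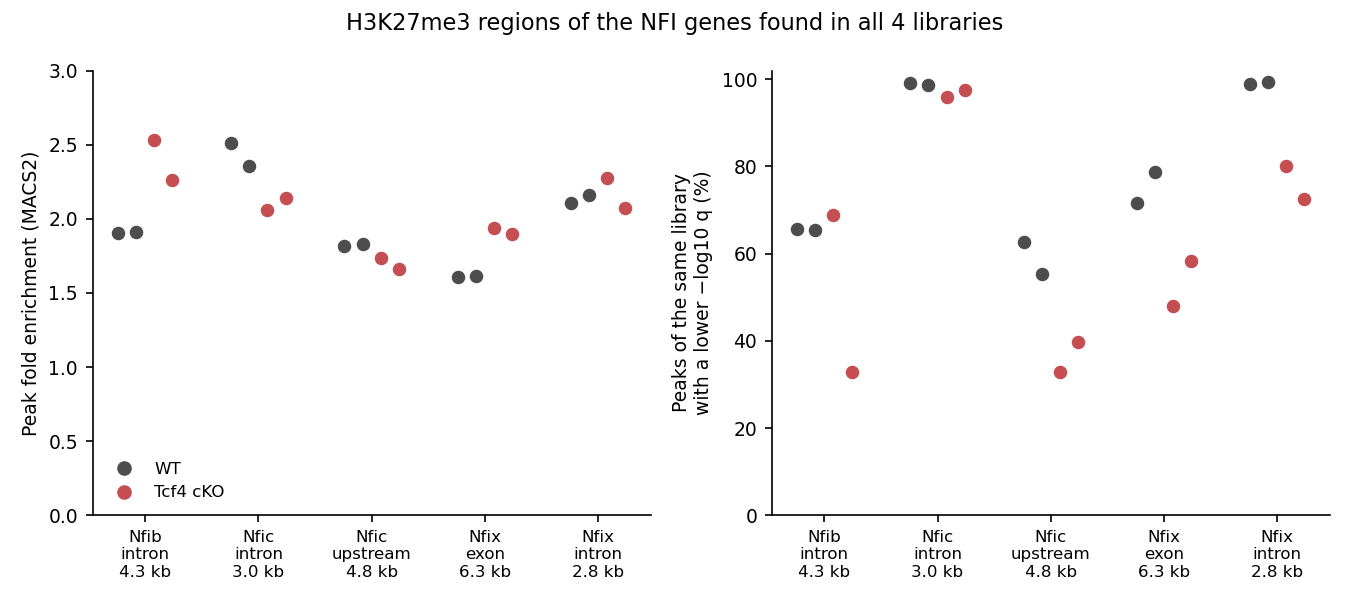
The 5 H3K27me3 regions of the NFI genes with peaks in all 4 libraries, labelled by gene, place and width. Left, MACS2 fold enrichment; right, percent of peaks in the same library with a lower −log10 q; grey, WT; red, Tcf4 cKO. In the rightmost Nfix region enrichments overlap, while the rank, which may move with the unknown read depth, is 98.9 and 99.4 in WT and 80.1 and 72.6 in Tcf4 cKO.

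Tcf4 itself was found in both Cut&Tag libraries at 7 places in the NFI genes, 4 in Nfia, 2 in Nfib and 1 in Nfix, and at 0 in Nfic. Of all protein-coding genes, 48.6% had at least 1 such region. Per 100 kb of window this came to 1.12 for Nfia, 0.47 for Nfib and 0.91 for Nfix, against 1.13 over all gene windows together. At Nfia, chr4:98108514-98109237 near the 3′ end had the highest enrichment in replicate 1 (5.79, with 4.94 in replicate 2), and the region at chr4:97910504-97911213 (5.01 and 3.96) lay over the internal promoter. The remaining Nfia sites were intronic, at chr4:98003629-98004372 (4.10 and 3.96) and chr4:98037428-98038331 (4.32 and 5.12), the highest in replicate 2. At Nfib the sites lay 176 and 6925 bp from an internal start site, at chr4:82505955-82507013 (4.14 and 4.20) and chr4:82512704-82513427 (5.53 and 5.63). The Nfix site was intronic, at chr8:84728288-84728910 (4.12 and 4.05).

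None of the 7 NFI regions with a mean more than 0.5 higher in Tcf4 cKO overlapped a Tcf4 region found in both libraries. The share among all regions with such means was not counted, and the 7 had low levels in WT (median 5.13). Of them 1, Nfix chr8:84793777-84794951, overlapped a Tcf4 peak of replicate 1. Promoters were 9 of the 37 NFI regions but 13909 of all 32120 regions. Of the 37 NFI regions 7 overlapped a Tcf4 region found in both libraries (18.9%), against 36.8% of all regions, without matching for promoters. Those 7, among them the Nfib region 59687 bp upstream of the gene that its symbol assigned to Nfib, had mean differences from -0.25 to 0.33, and 0 were called by limma. Replicate 1 alone had 23 peaks in the NFI genes and replicate 2 had 11, in lists of 28606 and 16834 peaks. The Tcf4 windows, 151 bases around the midpoint of both summits, are shown for 1 site per gene.
Nfia chr4:97910841-97910991: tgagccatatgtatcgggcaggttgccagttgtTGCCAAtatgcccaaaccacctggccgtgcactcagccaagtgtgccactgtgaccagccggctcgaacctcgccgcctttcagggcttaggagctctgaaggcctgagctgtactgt
Nfib chr4:82512990-82513140: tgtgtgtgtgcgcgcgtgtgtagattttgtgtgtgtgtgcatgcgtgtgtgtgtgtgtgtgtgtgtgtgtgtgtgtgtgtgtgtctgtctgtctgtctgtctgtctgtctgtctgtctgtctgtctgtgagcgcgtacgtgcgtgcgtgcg
Nfix chr8:84728637-84728787: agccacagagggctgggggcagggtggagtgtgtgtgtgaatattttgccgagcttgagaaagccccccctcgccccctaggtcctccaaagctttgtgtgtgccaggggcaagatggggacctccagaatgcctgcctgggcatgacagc
The Nfia window holds an NFI core 42 bases from its centre, the Nfib window is mostly repeats of tg and tctg, and CAGCTG is in none of the 3. Other E-boxes were not searched, but CACCTG can be read in the Nfia window, so the lack of CAGCTG is not a lack of E-boxes. Around the middle of the merged regions 1 of the 7 held CAGCTG, where 17.0% of all 14083 Tcf4 regions did.

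The NFI core was common in the NFI genes' own open regions. TTGGCA occurred on either strand within 75 bp of the centre of 10 of the 37 regions (27%), against 9.02% of all 32120 regions, and anywhere in 24 (64.9%) against 41.8%. The 10 were spread over all 4 genes, and they included 3 of the 7 regions with higher means, in Nfia, Nfib and Nfix. CAGCTG, searched in the same way, occurred in 7 (18.9%) against 12.9%. The full palindrome was found in 1 of the 37 regions, an intronic Nfia region at chr4:97868438-97869533, and in 0.156% of all regions. Promoters were 9 of the 37 NFI regions and 13909 of all 32120 regions, so the mix of regions differed. Shares within promoters or outside them were not compared. These are letter matches in the reference and not measured binding.

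Footprints, the local loss of ATAC cuts over a motif, were scored by the authors from 1 merged alignment per genotype, so their differences have no replicate check. The 8 NFI motifs split by their type. All 4 motifs of the cluster named C_NFIC, which hold the single site, had higher mean scores in Tcf4 cKO, and all 4 of the cluster C_NFIB, which hold the palindrome, had lower ones. Of all 1205 motifs 46.6% were higher. Among the single-site motifs, NFIC MA0161.2 went from 0.248 to 0.254 (log2 ratio 0.04, rank 61 from the highest), NFIC MA0161.1 from 0.245 to 0.250, NFIA MA0670.1 from 0.226 to 0.229 and NFIX MA0671.1 from 0.248 to 0.251. Among the palindromic ones, NFIC MA1527.1 went from 0.309 to 0.299 (log2 ratio -0.05, rank 1028), NFIX MA1528.1 from 0.327 to 0.319, NFIC::TLX1 MA0119.1 from 0.292 to 0.285 and NFIB MA1643.1 from 0.299 to 0.296.

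The log2 ratios of all motifs ran from -0.15 to 0.09 with an SD of 0.04, and those of the NFI motifs, from -0.05 to 0.04, lay inside that range. The median over the 8 NFI motifs was 0.0015, and over the bound shares, the percent of sites that the authors' threshold called bound, it was -0.0096. By that share NFIC MA1527.1 went from 14.0% (95% Wilson interval 13.5 to 14.5) to 13.5% (13.0 to 14.0) of 18640 sites, intervals that overlap and cover counting error only. For NFIB MA1643.1 the share was 13.2% and 13.3%, and 3 of the 8 motifs had a higher share in Tcf4 cKO. In WT, palindromic motifs had the higher shares, 12.6% to 15.4% against 7.94% to 9.69% for single-site motifs. The motifs share many of their sites and are not independent.

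**Figure D5:**
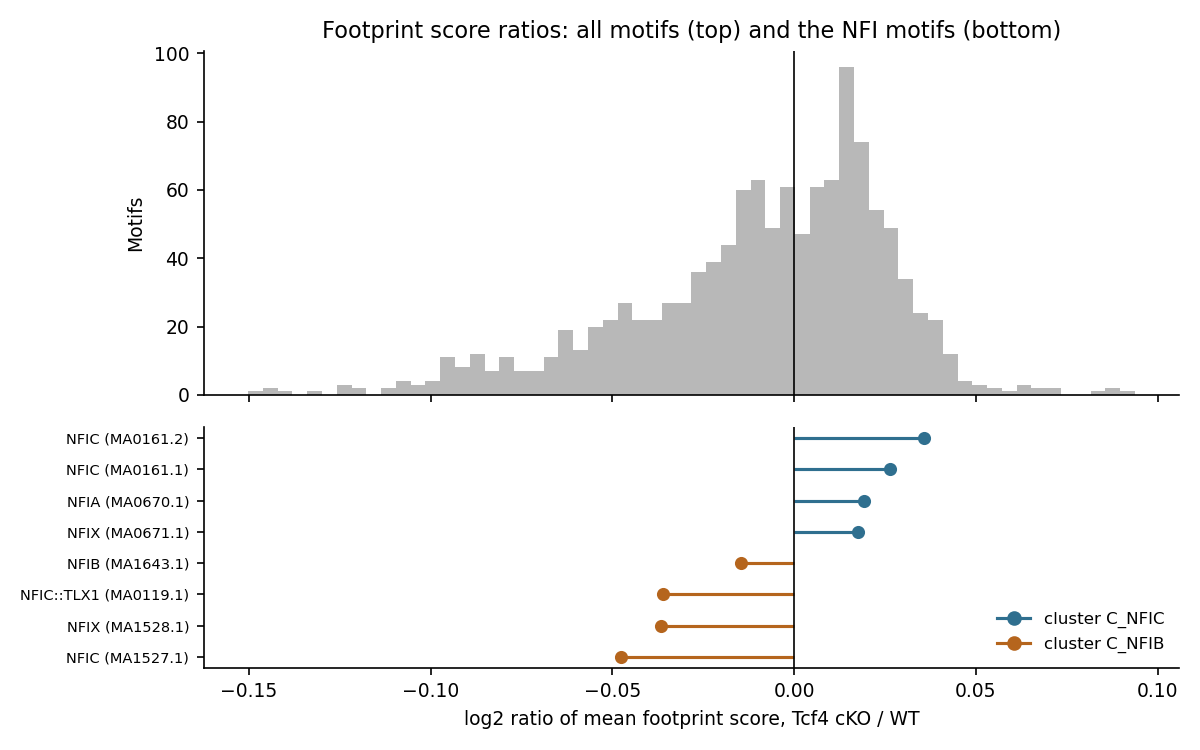
Log2 ratio of the mean footprint score, Tcf4 cKO over WT (horizontal axis), as a histogram of all 1205 motifs (top, number of motifs) and for each of the 8 NFI motifs (bottom), coloured by the cluster given in the authors' table. The NFI motifs lie between -0.05 and 0.04, with C_NFIC above 0 and C_NFIB below 0, inside the range of -0.15 to 0.09 of all motifs.

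Genes linked to NFI factors in glia gave no call, where calls were also rare over all regions. The list of 15 genes, from Sox9 and Zbtb20 to Gfap and Slc1a3, held 53 regions, and of the 48 tested 0 rose and 0 fell (limma adjusted p under 0.05), where 1.45% and 1.5% of all regions did. At an unadjusted p under 0.05 there were 1 higher and 1 lower. Their mean differences were over 0.5 at 7, where 8.38% of all regions were, and under -0.5 at 5, where 12.6% were, with a median of 0.01. Regions of Slc1a3, the glial glutamate transporter, accounted for the 2 with peaks in Tcf4 cKO alone, a pattern of 0.56% of all regions. They lay at chr15:8706032-8706518 and chr15:8781045-8782000, with mean differences of 1.90 and 2.61. Both lacked peaks in WT and so were left out of the test.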

How the data were processed

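The authors trimmed reads with Trim Galore, aligned them to mm10 with Bowtie 2, removed duplicates with SAMtools and called peaks in each library with MACS2. The deposited peak lists hold a fold enrichment (a ratio to local background), −log10 p and −log10 q. The table of reproducible ATAC regions holds the authors' mean log2 read concentration per genotype, and the footprint table the authors' mean TOBIAS score and the number of bound sites per motif, from merged alignments. Their comparison columns (fold, change, p, FDR) were not used. Single-cell libraries were not analysed here.

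Peaks were joined to GENCODE M21 genes with 5 kb of flank, an overlap of 1 bp counting as shared. Log2 enrichments, centred on each library's median, were fitted with limma 3.58.1 (R 4.3.3) over all regions with a peak in all 4 libraries, with Benjamini-Hochberg adjustment. On simulated data the ATAC fit recovered 99% of regions changed by a log2 of 1 and 4.5% of those changed by 0.5. Regions merged over libraries served for the marks, and a Tcf4 region is a peak of either library that the other overlaps. Named were the promoter regions, those with a mean difference beyond 0.5, called regions, regions present in 1 genotype alone, and H3K27me3 and Tcf4 regions; H3K27me3 and Tcf4 peaks of single libraries are given as counts. Sequences were read from GRCm38 (RefSeq). The labels do not say whether replicates came from separate litters, so p-values measure only the spread between these libraries. The genes, lists and thresholds were chosen with earlier results of these data known. Intervals are 95% Wilson intervals. The genes most like Nfia in peak coverage are not reported here.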

Additional observations from a re-analysis of the deposited data

How the results depend on the processing

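Quantile normalization kept the 2 called ATAC regions. A replicate block was fitted although deviations of same-numbered libraries were uncorrelated (r between -0.01 and 0.03). It also gave 2 NFI regions for ATAC and 0 for each of H3K4me1, H3K27ac and H3K27me3, so the pairing changed no call of an NFI region. Over all ATAC regions the block called 701 higher and 771 lower, against 442 and 455 without it. It called 3 regions for H3K27ac and 1 for H3K27me3, against 0 without it. Setting absent peaks at the lowest enrichment gave 4 ATAC regions and 1 H3K27me3 region. Leaving out 1 library gave from 0 to 2 called ATAC regions, 0 without either WT library and 1 without Tcf4 cKO replicate 1. With peaks of −log10 q of at least 5, 2 NFI regions had peaks in both Tcf4 cKO libraries alone, as did 472 of all 32120. With 1 library left out such NFI regions numbered from 1 to 3. There were 3 without WT replicate 2, where 648 of all regions had the pattern. The reverse pattern, at 0 otherwise, was found at 2 with that minimum of −log10 q and at 1 without Tcf4 cKO replicate 1. Its share over all regions is not given for these settings, so these counts have no background. The 6 separated gene and assay pairs became 9 to 12 with 1 library left out, where fewer samples make separation easier. The share of all gene windows that separate is not given for these settings. Those of Nfia H3K27ac, Nfic ATAC and Nfib H3K4me1 overlapped with 50 kb of flank. With −log10 q of at least 5, those of Nfia H3K27ac and Nfic H3K4me1 did. Tcf4 regions numbered 2 with −log10 q of at least 5, 23 for replicate 1 alone and 11 for replicate 2 alone. The median NFI footprint ratio was -0.00958 by bound shares, the opposite sign of the score ratio; the cause was not tested. The NFI core was in 24 regions when the whole region was searched, a longer sequence. Of all alternatives 81 kept direction and call or separation, 5 lost a separation of the genotypes, 5 lost the call of a single region, 14 moved and 1 reversed. Read depth is unknown, and 2 libraries per genotype limit what can be told apart.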

Other observations

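The genes whose peak coverage over the 16 ATAC and histone libraries was most like Nfib, Nfic and Nfix, among 21945 protein-coding genes with windows of at least 10 kb, were found by Euclidean distance in percentage points. For Nfib they were Prr5l (1.49), Pde10a (1.54) and Iqsec1 (1.76). Nfic was farther from its nearest genes, Arhgef17 (4.30), Kif26a (4.86) and Lrp1 (4.99), and Nfix farther still, from Cmas (5.62), Ccnd2 (6.08) and Bcor (6.40). Distances grow with the level of coverage, which is higher at Nfic and Nfix.

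The Nfia Tcf4 site at chr4:98037428-98038331 differed from the other 6 in that it overlapped no region of the ATAC table, and an ATAC peak was called there in 1 Tcf4 cKO library alone. H3K4me1 and H3K27ac peaks covered it in every library. H3K27ac enrichments there were 4.45 and 4.88 in WT and 4.75 and 5.10 in Tcf4 cKO (limma adjusted p = 0.95, n = 2). The 151 bases around the midpoint of its Tcf4 summits, chr4:98038089-98038239, were a tandem repeat. How reads map to that repeat was not tested, and no cause was tested.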
